A study of Mus musculus with 6 samples.

Results

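Ankrd1 and the muscle proteins that sit with it at the elastic part of the sarcomere were followed in heart muscle cells that lack the transcription factor TFEB. The group holds 10 genes, taken by name out of 46450 gene symbols in the deposited table: Ankrd1, Ankrd2 and Ankrd23, the LIM proteins Csrp3, Fhl1 and Fhl2, the Xin repeat proteins Xirp1 and Xirp2, and Tcap and Ttn. All 10 names were found, each as a single entry. The comparison is between 3 libraries of cardiomyocytes from TFEB-/- mice and 3 libraries of cardiomyocytes from wild-type mice, all C57BL/6 and aged 3 months. The labels do not say which cells of the mouse lost TFEB, at what age, and nothing in them ties a library to an animal of its own, so the p-values measure the spread between these libraries, which may be technical.

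The deposited values are CPM, a gene's share of a library scaled to a fixed total, rounded to whole numbers. Library sums lay between 999505 and 999655, and the reads behind a value are not known. The labels put single samples at 14000000 to 75000000 read pairs and the run at 409000000, without naming libraries, and these figures do not add up for 6 libraries, so no counting error is given. Tfeb was at 6, 5 and 7 CPM in TFEB-/- and at 17, 30 and 23 CPM in wild type, which is lower in each TFEB-/- library than in any wild-type library. The median log2 fold change of the 12437 tested genes was 0.24. Transcripts of the mitochondrial genome took 22.2% to 30.3% of the TFEB-/- libraries and 30.7% to 44.6% of the wild-type libraries. A scaling of each library by its median ratio to the others brings the median to 0.005, and directions below are given under that scaling too where they differ. The 6 cardiomyocyte markers (Myh6, Actc1, Tnnt2, Tnni3, Ryr2, Pln) summed to 47847 to 65376 CPM in TFEB-/- and 39524 to 55553 CPM in wild type, with none at 0, so the labelled cell type has its markers.

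Titin is a giant protein that runs from the Z-disc to the middle of the sarcomere and acts as its molecular spring. The muscle ankyrin repeat proteins bind the N2A region of that spring and can also enter the nucleus, and Ankrd1 is the heart member best known for its induction by stretch and pressure load. LIM proteins such as Csrp3 and the FHL proteins link titin and the Z-disc to signalling, Tcap ties the ends of titin molecules together in the Z-disc, and Xin repeat proteins bind actin at the intercalated disc.

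In TFEB-/- cardiomyocytes Ankrd1 rose 2.92-fold on the means, and it was the sole member past the threshold of the test. Of the 9 members tested, 1 was called higher and 0 lower in limma at an adjusted p below 0.05, where 3.92% of all tested genes were called higher and 0.523% lower. With median-ratio scaling 1 was called higher and 1 lower, against 3.87% and 1.61% of all genes. An unadjusted p below 0.05 was found for 2 of the 9 members and for 2904 of the 12437 genes. The groups did not overlap, with TFEB-/- higher, for Ankrd1 and Tcap, as they did for 21.2% of all tested genes. Fhl1 was lower without overlap, as 2.28% of all genes were. The median log2 fold change of the 9 members was 0.34, with 5 of them above the value for all genes (0.24) and 4 below it.

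**Figure D1:**
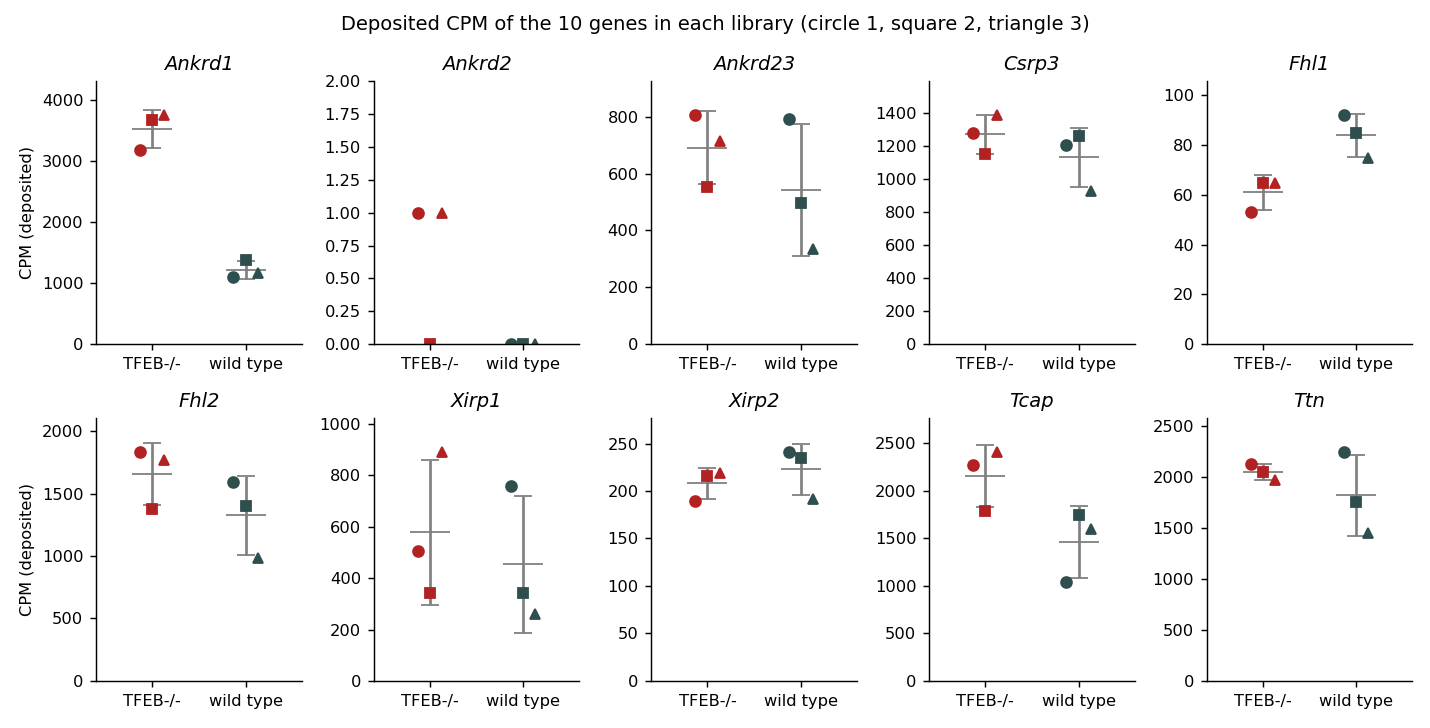
Deposited CPM (vertical axes, each from 0) of the 10 genes in the 3 TFEB-/- and the 3 wild-type libraries. Each point is a library, horizontal lines are means and bars are SD over n = 3, left out for Ankrd2. Ankrd1 lies between 3170 and 3744 CPM in TFEB-/- and between 1092 and 1378 CPM in wild type.

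Ankrd1 (ENSMUSG00000024803; GRCm38 chromosome 19, 36111961 to 36120099, minus strand), a protein-coding gene, had 3170, 3669 and 3744 CPM in TFEB-/- and 1092, 1378 and 1157 CPM in wild type. The lowest TFEB-/- library stood far above the highest wild-type library. Means were 3528 ± 312 CPM in TFEB-/- and 1209 ± 150 CPM in wild type (SD, n = 3 each). The log2 fold change was 1.55 (SE 0.12, 95% interval 1.23 to 1.87, limma adjusted p = 0.0046), and with median-ratio scaling it was 1.31 (SE 0.18, adjusted p = 0.0138). With 3 against 3 libraries, no two-sided exact permutation test can give a p below 0.1. Among the 2020 tested genes that averaged 50 CPM or more, Ankrd1 had the 15th largest positive log2 fold change, and among the 88 that averaged 1000 CPM or more the 5th largest.

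The stretches around TEAD, SRF and MEF2 motifs are shown because TEAD, SRF and MEF2 are factors known to drive genes of loaded muscle, and because Ankrd1 and the uncalled members can then be compared. RefSeq windows of the 250 bases before a start site (GRCm38.p6) were found for 8 of the 10 members (not for Xirp1 and Tcap), 12 windows in all, and were searched on both strands. The motifs were the M-CAT core of TEAD factors (CATTCC), the CArG box of SRF, the MEF2 site, GATA sites (AGATAA or AGATAG, or the same with T as the opening letter), the TATA box (TATAAA) and the E-box core bound by TFEB and its relatives (CACGTG). Each line gives 30 bases, 5′ to 3′ on the strand of the gene, with the motif in capitals.
Ankrd1, M-CAT, chr19:36120037-36120066, minus: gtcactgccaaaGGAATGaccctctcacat
Ankrd1, M-CAT, chr19:36119950-36119979, minus: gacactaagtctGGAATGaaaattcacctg
Ankrd23, M-CAT, chr1:36535842-36535871, minus: cccagtgggccaCATTCCcagaacggtatt
Fhl1, CArG box, chrX:56779571-56779600, plus: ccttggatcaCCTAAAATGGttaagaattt
Fhl2, CArG box, chr1:43196838-43196867, minus: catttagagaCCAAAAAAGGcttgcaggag
Fhl2, CArG box, chr1:43163973-43164002, minus: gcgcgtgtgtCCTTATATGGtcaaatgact
Xirp2, MEF2 site, chr2:67445918-67445947, plus: agctcagttcCTAAAAATAGgtgctaggtt
Ttn, MEF2 site, chr2:76982694-76982723, minus: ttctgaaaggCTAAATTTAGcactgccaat

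The 2 M-CAT cores of Ankrd1 begin 210 and 123 bases before its RefSeq start and both read GGAATG on the gene's strand, the reverse complement of the core. The printed stretches of Ankrd1, Ankrd23, Fhl1 and Fhl2 lie inside the GENCODE gene positions given here, past the outermost annotated start. Those of Xirp2 and Ttn lie before it. An M-CAT core stood in 2 of the 12 member windows (16.7%), one each of Ankrd1 and Ankrd23, and in 12.6% of all 32817 windows of this length. The CArG box stood in 3 of the 12 (25.0%), all of FHL genes, against 1.47% of all windows, and the MEF2 site in 2 (16.7%), those of Xirp2 and Ttn, against 0.51%. A GATA site was in 5 of the 12 (41.7%) and in 26.6% of all windows, and a TATA box in 3 (25.0%) and in 12.4%. The E-box core was in 0 of the 12 and in 6.02% of all windows. The motif matches are descriptions of these windows and not sites shown to be bound, and the absence of a match says only that the letters are not in the window.

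The other 2 muscle ankyrin repeat genes did not pass the test. Ankrd23 (chromosome 1, 36530188 to 36536883, minus strand), which also binds titin, was at 805, 552 and 716 CPM in TFEB-/- and at 793, 497 and 334 CPM in wild type. The groups overlap, since the first wild-type library is as high as the TFEB-/- libraries. Its log2 fold change was 0.42 with a wide interval (SE 0.36, 95% interval −0.51 to 1.35, limma adjusted p = 0.515), and 0.19 with median-ratio scaling. The annotation places another gene, Gm42417, over exons of Ankrd23 on the same strand, so reads of the shared exons cannot be assigned with certainty. Ankrd2 (chromosome 19, 42036000 to 42045110, plus strand), the member best known from skeletal muscle, was listed at 1, 0 and 1 CPM in TFEB-/- and at 0 in the 3 wild-type libraries, and it did not reach the filter of 1 CPM in at least 3 libraries. The skeletal muscle markers summed to 8 to 10 CPM in TFEB-/- and 1 to 2 CPM in wild type, with Myh1, Myh4 and Actn3 at 0.

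Per kilobase of the longest annotated coding transcript, Ankrd1 made up 81.6%, 88.2% and 85.5% of the summed level of Ankrd1 and Ankrd23 in TFEB-/-, and 60.8%, 75.8% and 79.6% in wild type. The share was higher in each TFEB-/- library than in any wild-type library, narrowly so against the highest of them (exact permutation p = 0.1, the smallest possible). The share carries the Ankrd1 difference itself and the uncertain assignment of Ankrd23 reads.

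None of the LIM protein genes passed the threshold on deposited CPM. Fhl1 (chromosome X, 56731787 to 56793346, plus strand), which binds titin and links it to MAP kinase signalling, was at 53, 65 and 65 CPM in TFEB-/- and at 92, 85 and 75 CPM in wild type. Each TFEB-/- library lies below each wild-type library. Means were 61.0 ± 6.93 CPM in TFEB-/- and 84.0 ± 8.54 CPM in wild type, and the log2 fold change of −0.46 (SE 0.12, 95% interval −0.78 to −0.14) missed the threshold (limma adjusted p = 0.117). With median-ratio scaling it was −0.70 (adjusted p = 0.0354) and with mitochondrial transcripts left out of the total −0.69 (adjusted p = 0.029), both past it, and with the replicate block added to median-ratio scaling it just missed it (adjusted p = 0.0509).

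Fhl2 (chromosome 1, 43123074 to 43196984, minus strand), the more abundant of the FHL genes per kilobase and a cofactor known to bind titin and signalling enzymes, was at 1832, 1375 and 1767 CPM in TFEB-/- and at 1592, 1403 and 980 CPM in wild type. The groups overlap, and the log2 fold change was 0.34 (SE 0.23, 95% interval −0.25 to 0.93, limma adjusted p = 0.403), and 0.10 with median-ratio scaling. Per kilobase, Fhl1 was 1.61%, 2.60% and 2.03% of the sum of Fhl1 and Fhl2 in TFEB-/-, and 3.16%, 3.31% and 4.14% in wild type. That share was lower in all TFEB-/- libraries (exact permutation p = 0.1, the smallest possible).

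Csrp3 (chromosome 7, 48830398 to 48848033, minus strand) encodes muscle LIM protein, a Z-disc component whose loss in mice leads to dilated hearts. It was at 1280, 1152 and 1388 CPM in TFEB-/- and at 1210, 1263 and 927 CPM in wild type, and the groups overlap. The log2 fold change of 0.18 (95% interval −0.21 to 0.57, limma adjusted p = 0.515) became −0.06 with median-ratio scaling.

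**Figure D2:**
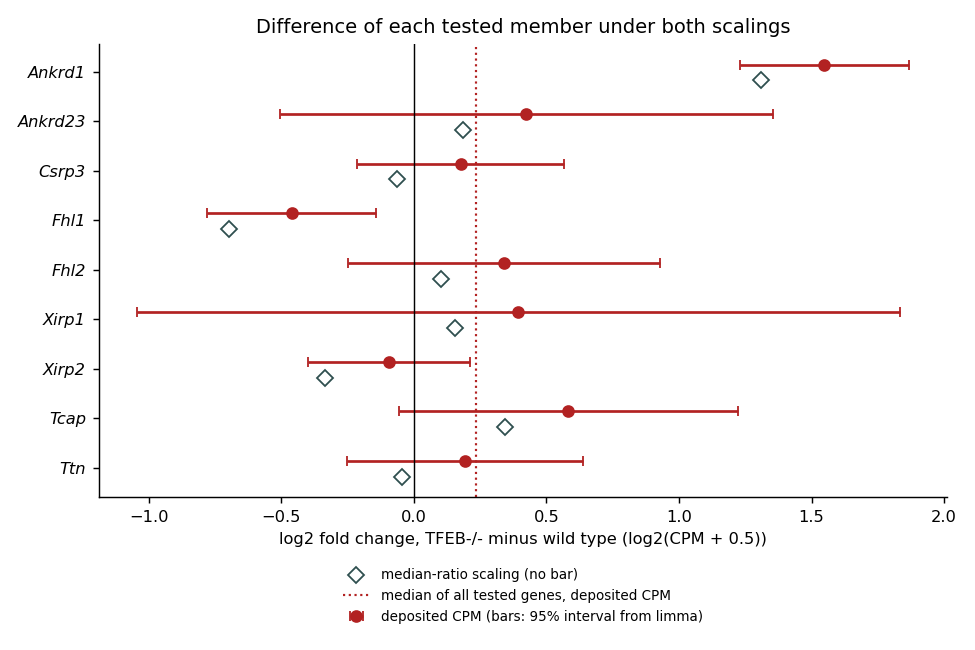
Log2 fold change (horizontal axis, TFEB-/- minus wild type) of the 9 tested members on deposited CPM, with 95% intervals, and with median-ratio scaling, shown without intervals. The interval of Ankrd1 (1.23 to 1.87) lies right of the dotted line at the median of all genes, and that of Fhl1 (−0.78 to −0.14) lies left of 0.

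The Xin repeat genes were not called. Xirp1 (chromosome 9, 120013755 to 120023598, minus strand) was at 505, 341 and 891 CPM in TFEB-/- and at 757, 343 and 260 CPM in wild type. It varied more within groups than any other tested member, with a coefficient of variation of 48.8% in TFEB-/- and 58.7% in wild type. Its log2 fold change of 0.39 had a 95% interval from −1.04 to 1.83 (limma adjusted p = 0.669), and it was 0.16 with median-ratio scaling.

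Xirp2 (chromosome 2, 67446002 to 67526614, plus strand) varied less, with 189, 216 and 219 CPM in TFEB-/- and 241, 235 and 192 CPM in wild type. The groups overlap, and the log2 fold change was −0.09 (95% interval −0.40 to 0.21, limma adjusted p = 0.637). With median-ratio scaling the groups did not overlap and the value was −0.33 (adjusted p = 0.18). The antisense gene Gm13601 over exons of Xirp2 was listed at 0 in all libraries.

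Titin and its cap were also uncalled. Tcap (chromosome 11, 98383811 to 98384953, plus strand) had 2271, 1783 and 2406 CPM in TFEB-/- and 1036, 1749 and 1600 CPM in wild type. The groups narrowly do not overlap, TFEB-/- 2 lying just above wild type 2, and they overlap with median-ratio scaling. Its log2 fold change was 0.58 (SE 0.25, 95% interval −0.06 to 1.22, limma adjusted p = 0.239), and 0.34 with median-ratio scaling.

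Ttn (chromosome 2, 76703980 to 76982547, minus strand) was at 2122, 2050 and 1968 CPM in TFEB-/- and at 2242, 1757 and 1453 CPM in wild type. The TFEB-/- libraries all lie within the range of the wild-type libraries. Its log2 fold change was 0.19 (95% interval −0.25 to 0.64, limma adjusted p = 0.515) and −0.05 with median-ratio scaling. The antisense gene Gm13938 over exons of Ttn was listed at 0. A value per gene does not show which of its transcripts, from 271 to 106824 bases, was read.

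The first wild-type library differed from the other wild-type libraries across several members. On deposited CPM it had the highest wild-type values of Ankrd23, Xirp1, Xirp2, Fhl1, Fhl2 and Ttn and the lowest of Ankrd1 and Tcap. With median-ratio scaling this did not hold for Xirp2 and Fhl1. Xirp2 was then at 236.6 in wild type 1 and 251.2 in wild type 2. Fhl1 was lowest in wild type 1, at 90.3 against 90.9 and 91.7 in wild type 2 and 3. Without wild type 1 the log2 fold change of Ankrd1 was 1.48 (limma adjusted p = 0.0201), that of Ankrd23 was 0.74 (adjusted p = 0.192) and that of Xirp1 was 0.84 (adjusted p = 0.328). That of Tcap was then 0.35 and that of Ttn 0.36, neither past the threshold (adjusted p = 0.266 for Tcap and 0.154 for Ttn). Without wild type 3, which had the lowest Ankrd23, Xirp1 and Ttn, the values of Ankrd23 and Xirp1 were 0.12 (adjusted p = 0.892) and 0.07 (adjusted p = 0.989), and without TFEB-/- 3 that of Xirp1 was 0.03 (adjusted p = 1.0). Leaving out wild type 3 also brought Fhl2 to 0.14, Ttn to 0.04 and Csrp3 to 0.04, none past the threshold.

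Levels between members can be compared only per length, here taking CPM as not already divided by length, which is not stated. Per kilobase of the longest coding transcript, Tcap stood first in both groups, at 2270 ± 346 CPM per kilobase in TFEB-/- and 1540 ± 397 in wild type (SD, n = 3 each). Ankrd1 was second in TFEB-/- at 1750 ± 154 CPM per kilobase and stood below Fhl2 in wild type at 599 ± 74.2. Csrp3 followed in TFEB-/- at 1420 ± 131 and was second in wild type at 1260 ± 201, and Fhl2 stood at 1060 ± 158 in TFEB-/- and 848 ± 200 in wild type. In TFEB-/- the libraries of Tcap, Ankrd1, Csrp3 and Fhl2 follow each other without overlap. The gap is narrow between Tcap and Ankrd1 and between Ankrd1 and Csrp3. In wild type Tcap and Csrp3 overlap, Csrp3 lies narrowly above Fhl2 without overlap, and Fhl2 and Ankrd1 overlap.

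Lower in that order were Ankrd23 at 303 ± 56.4 CPM per kilobase in TFEB-/- and 238 ± 102 in wild type, and Xirp1 at 99.2 ± 48.4 in TFEB-/- and 77.6 ± 45.6 in wild type. Fhl1, Ttn and Xirp2 lay between 17.0 and 30.3 CPM per kilobase on average, and Ankrd2 was last. The place of Ttn rests on the length used: at 19.2 CPM per kilobase in TFEB-/- it was 8th of 10 with its longest transcript of 106824 bases, and at 961 CPM per kilobase 5th of 10 with the median coding transcript of 2130 bases.

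Ratios within a library do not depend on scaling between libraries, and Ankrd1 was higher in each TFEB-/- library relative to 7 of the 8 other tested members. The ratio of Ankrd1 to Fhl1 CPM was 59.8, 56.4 and 57.6 in TFEB-/- and 11.9, 16.2 and 15.4 in wild type, a log2 difference of 2.01. The ratio to Xirp2 was 16.8, 17.0 and 17.1 in TFEB-/- and 4.53, 5.86 and 6.03 in wild type. The ratio to Ttn, the protein that Ankrd1 binds, was 1.49, 1.79 and 1.90 in TFEB-/- and 0.487, 0.784 and 0.796 in wild type.

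The groups did not overlap for 7 of the 8 ratios, with log2 differences from 0.97 for Tcap to 2.01 for Fhl1. For these 7 the exact permutation p was 0.1, the smallest possible, or 0.114 adjusted over the 8. The exception was the ratio to Xirp1, with 6.28, 10.8 and 4.20 in TFEB-/- and 1.44, 4.02 and 4.45 in wild type (exact permutation p = 0.2). The 8 ratios share the values of Ankrd1 and are not independent. Each carries the Ankrd1 difference given above, so their separation adds no support of its own for it. For how many of all tested genes such a ratio would separate the groups was not computed.

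**Figure D3:**
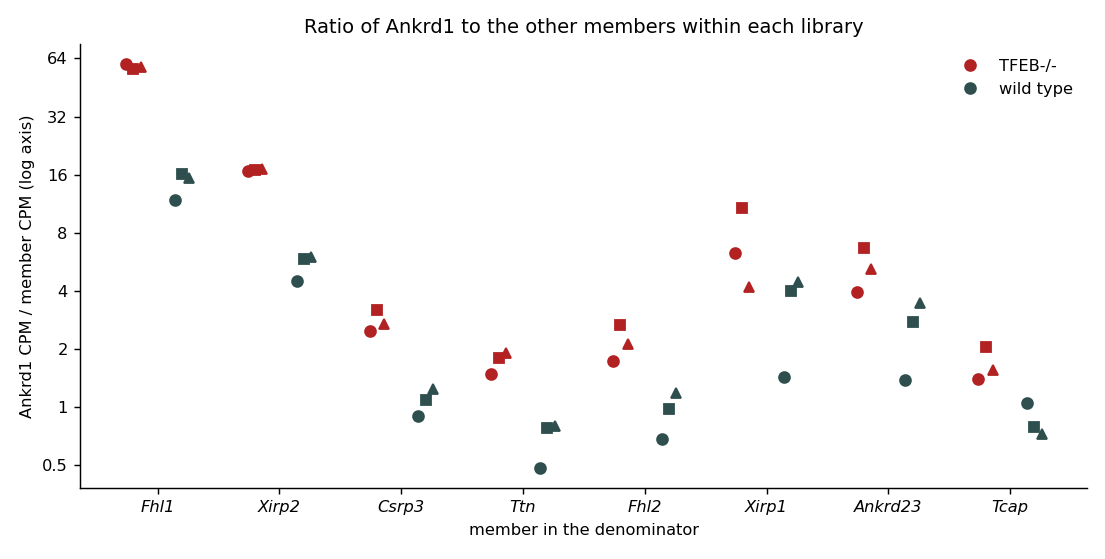
Ratio of Ankrd1 CPM to the CPM of each other tested member (vertical axis, log scale) in the TFEB-/- libraries and the wild-type libraries, with circle, square and triangle for replicates 1, 2 and 3. The groups are apart for all members but Xirp1, and the TFEB-/- points of Xirp2 run only from 16.8 to 17.1.

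The partners of these proteins were described with 6 lists of 95 tested genes in all. Of these 95 genes 2 passed the threshold as higher, Obsl1 and Acta1, and 0 as lower, against 3.92% and 0.523% of all genes. The groups did not overlap with TFEB-/- higher for 22 of them (23.2%), near the 21.2% of all genes. They did not overlap with TFEB-/- lower for 4 (4.21%), against 2.28% of all genes. The median log2 fold change of the 95 genes was 0.26. With median-ratio scaling 3 were called higher and 3 lower, against 3.87% and 1.61% of all genes. The higher genes were Acta1, Obsl1 and the Z-disc protein Pdlim1 (0.51, limma adjusted p = 0.0462). The lower genes were the Z-disc proteins Myot (−0.81, adjusted p = 0.0383) and Nexn (−0.48, adjusted p = 0.0288) and the laminin chain Lama2 (−1.01, adjusted p = 0.0354). On deposited CPM these were at −0.57 for Myot, −0.24 for Nexn, −0.77 for Lama2 and 0.74 for Pdlim1, none past the threshold.

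Among 14 tested partners of the titin I-band and M-band, 1 was called higher. Obsl1, an obscurin-like protein that binds titin at the M-band, was at 210, 136 and 181 CPM in TFEB-/- and at 90, 83 and 80 CPM in wild type. The groups are well apart, with a log2 fold change of 1.03 (SE 0.18, limma adjusted p = 0.0497). The call lies just inside the threshold and passed in 6 of 14 alternatives. It was lost with any wild-type library, TFEB-/- 1 or TFEB-/- 3 left out, with no filter, with a pseudocount of 1 and with the replicate block (adjusted p over all alternatives 0.0073 to 0.17), while the log2 fold change stayed between 0.80 and 1.21.

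Among 16 tested load-induced genes 1 was called higher. Acta1, skeletal muscle actin, was at 2100, 3460 and 3925 CPM in TFEB-/- and at 269, 468 and 608 CPM in wild type. Its log2 fold change was 2.85 (SE 0.40, limma adjusted p = 0.0322), larger than that of Ankrd1 but with a wider spread, and the call was lost when any 1 of the 6 libraries was left out (adjusted p up to 0.119), while the log2 fold change stayed between 2.52 and 3.12 over all alternatives. Il1rl1 and Tnc were listed at 0. The median of that list was 0.52, the highest of the 6.

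None of 16 Z-disc partners, 21 costamere and integrin genes and 20 stretch-linked transcription regulators was called in limma on deposited CPM. Nor was any of the 8 tested genes in the list labelled sequence relatives of the members. The list medians were, in that order, 0.32, 0.05, 0.18 and 0.39. The intermediate filament Des was at 2595, 2343 and 3003 CPM in TFEB-/- and 1686, 1898 and 1536 CPM in wild type (log2 fold change 0.63, limma adjusted p = 0.0742), groups that do not overlap. The Z-disc crosslinker Actn2 was at 2438 ± 322 CPM in TFEB-/- and 1858 ± 238 CPM in wild type (adjusted p = 0.207).

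Srf, the factor that reads CArG boxes, was at 139.7 ± 17.9 CPM in TFEB-/- and 99.7 ± 21.4 CPM in wild type (limma adjusted p = 0.228), and Mef2d was at 195.0 ± 30.1 CPM in TFEB-/- and 153.3 ± 20.3 CPM in wild type (adjusted p = 0.254). The laminin receptor Itga7 was at 233.7 ± 30.9 CPM in TFEB-/- and 175.0 ± 27.9 CPM in wild type (limma adjusted p = 0.217). In the list labelled sequence relatives, Nrap was at 533.7 ± 107 CPM in TFEB-/- and 548.7 ± 65.3 CPM in wild type. Lmod2, which is in that list but not of a family of the members, was at 862.3 ± 213 CPM in TFEB-/- and 749.3 ± 86.7 CPM in wild type. The log2 fold change of Lmod2 was 0.18, and −0.06 with median-ratio scaling.

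**Figure D4:**
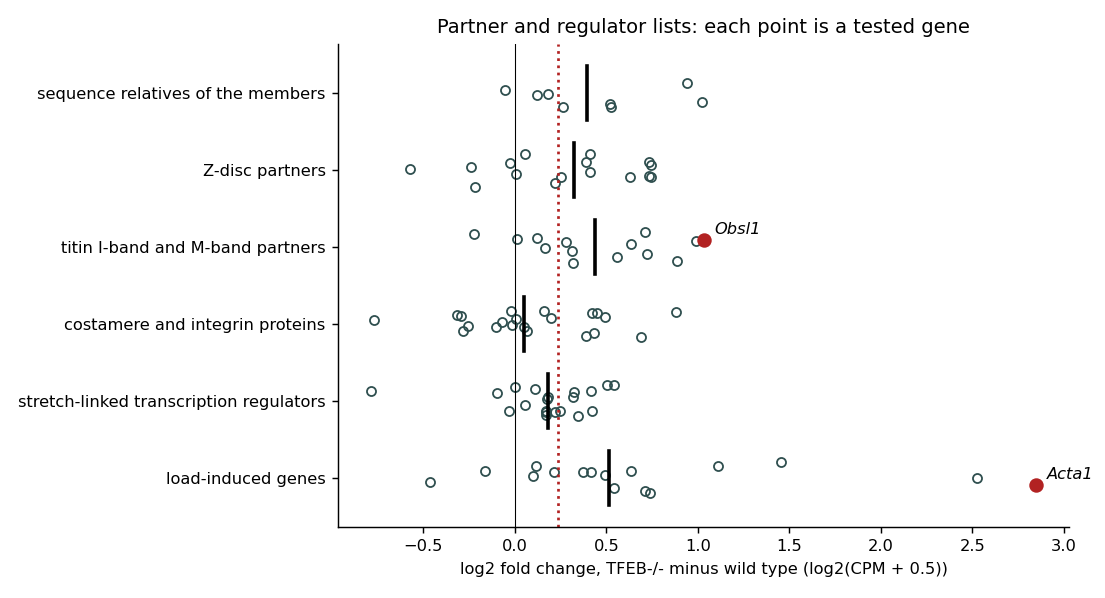
Log2 fold change (horizontal axis, TFEB-/- minus wild type) of each tested gene in the 6 lists of partners and regulators. Filled points passed the threshold, Obsl1 at 1.03 and Acta1 at 2.85, black bars are list medians from 0.05 to 0.52, and the dotted line is the median of all tested genes at 0.24.

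Genes whose profile over the 6 libraries was among the most like that of Ankrd1, by the root mean square difference of mean-centred log2(CPM + 0.5) among genes averaging 50 CPM or more, were Pfkp, Cox19, Acta2 and Gpx1. The difference was 0.23 for the platelet-type phosphofructokinase Pfkp, which was at 108, 88 and 93 CPM in TFEB-/- and 39, 38 and 28 CPM in wild type. It was 0.24 for Cox19, 0.26 for Acta2 and 0.27 for Gpx1. Among the members the nearest was Tcap, at 0.54, and the farthest Fhl1, at 1.01.

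Markers of other cells stand beside these values. All 7 smooth muscle and pericyte markers were measured, none at 0, and they summed to 306 to 392 CPM in TFEB-/- and 232 to 276 CPM in wild type. Among them Acta2 was at 161, 233 and 185 CPM in TFEB-/- and 66, 118 and 70 CPM in wild type, and the other 6 summed to 145 to 173 CPM in TFEB-/- and 158 to 189 CPM in wild type. The median log2 fold change of the 7 was −0.15. Rgs5 was at −0.28, Pdgfrb at −0.25 and Kcnj8 at −0.21, all 3 uncalled and lower without overlap under median-ratio scaling. The share of all genes lower without overlap under that scaling is not given here. Myh11 was at −0.15 and Tagln at 0.08, overlapping under both scalings, and Acta2 was at 1.22 and Cspg4 at 1.06. The 6 macrophage markers summed to 33 to 37 CPM in TFEB-/- and 14 to 22 CPM in wild type, and one of them, Adgre1, was at 1 CPM in each TFEB-/- library and at 0, 0 and 1 CPM in wild type. The 8 endothelial markers summed to 227 to 249 CPM in TFEB-/- and 225 to 322 CPM in wild type, the 6 fibroblast markers to 111 to 149 CPM in TFEB-/- and 97 to 119 CPM in wild type, and the 3 erythroid markers, with Alas2 at 0, to 4 to 8 CPM in TFEB-/- and 3 to 29 CPM in wild type. Of all these markers 3 were called higher in limma, where 3.92% of all tested genes were. They were 1 of 7 tested smooth muscle and pericyte markers, 1 of 2 tested skeletal muscle markers and 1 of 6 tested fibroblast markers. Cspg4, also a pericyte marker, was at 29, 21 and 21 CPM in TFEB-/- and 10, 12 and 11 CPM in wild type. Tnnt3 was at 3 CPM in each TFEB-/- library and 0 in each wild-type library, and Pdgfra at 3 CPM in each TFEB-/- library and 2 CPM in each wild-type library, values whose spread within groups is hidden by the rounding. The call of Cspg4 passed in 7 of 14 alternatives, that of Pdgfra in 8 of 13 and that of Tnnt3 in 13 of 13. Pdgfra was not called with median-ratio scaling (limma adjusted p = 0.336).

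The 3 atrial markers, Myl4, Myl7 and Sln, none at 0, summed to 497 to 556 CPM in TFEB-/- and to 71 to 665 CPM in wild type. The median atrial sum was 516 CPM in TFEB-/- and 240 CPM in wild type. Wild type 2 had the highest atrial sum of all 6 libraries and, at 1378 CPM, the highest Ankrd1 of the wild-type libraries. The part of the other cell types in the Ankrd1 and Fhl1 differences was not tested, and in these bulk samples fewer cells of a type and less RNA per cell cannot be told apart.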

How the data were processed

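Poly(A) RNA libraries of 6 cardiomyocyte samples were made with a stranded TruSeq kit and read as pairs on a NextSeq, per the labels. The deposited table holds a score per gene and library, whole numbers that its name gives as kallisto CPM. Beside the GRCm38 build, programs listed by the authors in the submitters' processing notes are edgeR, DESeq2, StringTie, RSEM, Salmon, kallisto, HISAT2 and STAR, with no role given. Scaling by length is not stated. Mitochondrial pairs known to share a transcript had unequal values. The ratio was 0.122 to 0.142 for mt-Nd4l over mt-Nd4 (297 and 1378 bases) and 0.0573 to 0.102 for mt-Atp8 over mt-Atp6 (204 and 681 bases), below the ratio of lengths in both, so whether values were divided by length was not settled by them. The depth of each library is not given in the sources used here.

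Date-like names (26) were restored through their IDs, 303 missing names were replaced by IDs, and entries of a symbol were summed. Positions and transcript lengths are from GENCODE M21, motif windows from RefSeq. Genes reaching 1 CPM in 3 or more libraries (12437) were compared with limma 3.58.1 (R 4.3.3) on log2(CPM + 0.5), genotype as the only term, with a mean-variance trend. P-values are two-sided and adjusted by Benjamini-Hochberg over all tested genes (threshold 0.05). Intervals use the 4.88 total degrees of freedom. The fit was tested on simulated data.

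The members and lists were chosen with earlier results of these data known. Named genes are the members, Tfeb, up to 3 higher and 3 lower called genes of each list (or its 2 most abundant), and 5 genes most like Ankrd1, of which some are not reported here. Marker genes named are from the marker lists. Of these, Acta2, Rgs5, Pdgfrb, Kcnj8, Myh11, Tagln and Adgre1 were picked after their values were seen, as were Myot, Nexn, Lama2 and Pdlim1. Gm42417, Gm13601 and Gm13938 overlap members. Alternatives changed the pseudocount, filter, scaling, hyperparameters, replicate block and libraries used.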

Additional observations from a re-analysis of the deposited data

How the results depend on the processing

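Ankrd1 stayed higher and past the threshold in all 14 alternatives, with log2 fold changes from 1.31 to 1.65 and limma adjusted p from 0.000713 to 0.0479, the highest with the replicate number as a block. Leaving out 1 library gave 1.48 to 1.65. Fhl1 was lower in all 14 (−0.70 to −0.36, adjusted p = 0.029 to 0.249), and the count of members called lower was 1 with median-ratio scaling and 1 without mitochondrial transcripts, both times Fhl1. The members called higher numbered 1 in each alternative, also with any 1 library left out. Csrp3 turned to −0.063 with median-ratio scaling, alone or with the block, and to −0.049 without mitochondrial transcripts, and Ttn to −0.046 and −0.032. The block with median-ratio scaling was added after the data were seen.

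Of the 95 listed partners, 2 were called higher and 0 lower, where 3.92% and 0.523% of all genes were. The counts were 8 higher and 2 lower with a filter of 5 CPM, where 6.44% and 0.665% of all genes were, and 9 and 3 with robust hyperparameters, where 6.27% and 0.635% were. They were 3 higher and 3 lower with median-ratio scaling (3.87% and 1.61% of all genes). Without mitochondrial transcripts they were 3 and 4 (3.7% and 1.51% of all genes). With the block added to median-ratio scaling they were 3 and 1 (2.06% and 0.973% of all genes). The count of higher genes was 1 with no filter, 1 with a pseudocount of 1 and 1 with the block, where 3.17%, 3.59% and 1.28% of all genes were higher. Leaving out 1 library gave 0 to 2 higher and 0 to 1 lower, against 1.99% to 4.15% and 0.418% to 0.732% of all genes. These calls include Tead2 without TFEB-/- 2 and Myh7 without wild type 1. Tead2 was at 3, 2 and 3 CPM in TFEB-/- and at 2 CPM in each wild-type library. Without TFEB-/- 2 its spread within groups is hidden by the rounding. The cause of the changes in count was not tested.

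The labels do not say that equal replicate numbers mark pairs. Deviations from the group means of equally numbered libraries correlated at 0.144, −0.049 and 0.088 over the tested genes, and the block is given here only as an alternative. Under it 159 genes were higher and 26 lower, against 487 and 65 without it. With median-ratio scaling 481 were higher and 200 lower, with the block added 256 and 121, without mitochondrial transcripts 460 and 188, and with robust hyperparameters 780 and 79. Leaving out 1 library gave 248 to 516 higher and 52 to 91 lower. Depth is unknown, and rounding to whole CPM limits only Ankrd2 among the members.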
